A study of Mus musculus with 6 samples.

Results

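Tbx19, Tg, Scel, Prokr1, Dio1 and Cox6a2 are 6 genes best known from tissues other than T cells, among them pituitary, thyroid, epithelium, liver and striated muscle. They are 6 of the 51912 Ensembl mouse genes in a count table from EL4, a mouse T-cell lymphoma line. They were chosen by symbol because they changed strongly between vehicle and RGFP966 libraries of these same data, so their differences are given as descriptions with no test. The choice named no fold or p as its limit. RGFP966 is an inhibitor of the histone deacetylase HDAC3. Wild-type EL4 cells received either vehicle or RGFP966 at 10 µM for 24 h, and 3 libraries were sequenced per group. All 6 libraries come from 1 established line. No label states that replicates were grown as separate cultures, so the p-values below measure only the spread between these libraries, which may be technical. The extraction text names retinas, while every other label names EL4 cells.

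Library totals ran from 12935443 to 16451017 counts. T cell markers were present, which shows the lineage and not the line: 19 of 20 measured at least 1 CPM (counts scaled to library size by edgeR), and their summed level was 4190.0 to 4260.0 CPM in vehicle and 4380.0 to 4460.0 CPM in RGFP966 libraries. Of 20 retina markers, 4 reached 1 CPM and 5, among them Crx and Gnat1, had no count in any library. The retina sum was 9.49 to 11.7 CPM in vehicle and 12.9 to 14.3 CPM in RGFP966 libraries, so it was higher with RGFP966. Among 10 B cell markers 2 reached 1 CPM, with Ighm making up nearly all of the sum, and Ms4a1 had no count. The B cell sum was lower with RGFP966, at 497 to 506 CPM against 532 to 555 CPM. Of 13 myeloid markers 3 reached that level, and of 10 fibroblast markers 2, one of which was Thy1, a gene that T cells also express. The fibroblast sum, mostly Thy1, was higher with RGFP966, at 971 to 1030.0 CPM against 918 to 952 CPM, and the myeloid sums overlapped. The part of other cell types in the values below was not tested. In bulk RNA, fewer cells of a type and less RNA per cell cannot be told apart. Hdac3 itself measured 89.1 ± 3.83 CPM without and 85.9 ± 2.49 CPM with RGFP966 (SD, n = 3) (log2 fold change -0.05 ± 0.05 SE, edgeR adjusted p = 0.482).

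HDAC3 works in complexes with corepressors such as NCoR1, which unliganded nuclear receptors, thyroid hormone receptors included, bring to their target genes. Removal of acetyl groups from histones there is linked to low transcription. Genes of other tissues are usually kept silent in lymphocytes. Thyroglobulin, the product of Tg, is the protein on which the thyroid builds its hormone. Iodothyronine deiodinases, of which Dio1 encodes one, are selenoproteins that add or remove hormone activity by taking off iodine. TBX19, also called TPIT, is a T-box transcription factor that commits pituitary cells to the corticotrope fate and to transcription of Pomc.

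RefSeq promoter windows on GRCm38.p6 matched 4 of the 6 symbols, Tbx19, Scel, Prokr1 and Dio1. Tg and Cox6a2 had no match. The 250 bases before each start are printed because they let the 3 genes that were higher be set beside 1 that was lower, each 5′ to 3′ on the strand of its gene. Capitals mark the motifs searched on both strands over 250 bases before and 50 after the start. These were the TATA box as TATAAA, the site of RUNX factors as TGTGGT and the site of ETS factors as CCGGAA. Also searched were an E-box form, CAGNTG, the site of GATA factors as AGATAA, and the cyclic AMP response element as TGACGTCA. Read on the opposite strand this E-box form is CANCTG, and no 2 of the motifs overlapped in these windows. Other E-box forms were not searched, so they carry no capitals.
Tbx19, chr1:165160774-165161023, minus strand: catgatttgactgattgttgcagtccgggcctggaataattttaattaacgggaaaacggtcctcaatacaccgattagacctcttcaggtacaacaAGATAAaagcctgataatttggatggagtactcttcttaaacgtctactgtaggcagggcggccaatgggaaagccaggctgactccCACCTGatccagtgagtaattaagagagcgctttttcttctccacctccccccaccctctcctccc
Scel, chr14:103513091-103513340, plus strand: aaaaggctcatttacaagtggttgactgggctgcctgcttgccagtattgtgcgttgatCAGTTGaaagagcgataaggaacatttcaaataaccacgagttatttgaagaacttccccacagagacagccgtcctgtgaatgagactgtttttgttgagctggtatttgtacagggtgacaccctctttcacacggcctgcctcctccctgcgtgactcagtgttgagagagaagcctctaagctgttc
Prokr1, chr6:87590744-87590993, minus strand: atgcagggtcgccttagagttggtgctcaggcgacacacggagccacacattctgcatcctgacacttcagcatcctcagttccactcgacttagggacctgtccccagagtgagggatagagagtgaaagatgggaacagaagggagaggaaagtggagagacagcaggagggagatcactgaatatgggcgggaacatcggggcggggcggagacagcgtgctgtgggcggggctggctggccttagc
Dio1, chr4:107307169-107307418, minus strand: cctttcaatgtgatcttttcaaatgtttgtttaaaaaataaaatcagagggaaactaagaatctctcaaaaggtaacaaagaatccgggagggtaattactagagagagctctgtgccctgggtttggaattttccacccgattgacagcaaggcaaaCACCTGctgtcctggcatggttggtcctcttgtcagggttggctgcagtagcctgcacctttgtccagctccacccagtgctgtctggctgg
The Tbx19 window held AGATAA 153 bases before the start, a motif found in 11.2% of 32851 promoters of the same length. Letters of the searched E-box form stood in all 4 windows, against 51.4% of all promoters. In Prokr1 they lay only after the start, so its printed bases carry no capitals. The letters of the TATA box, the RUNX and ETS sites and the cyclic AMP response element, present in 13.6%, 16.8%, 14.9% and 1.79% of all promoters, were not found in these windows. The windows held 7 CG dinucleotides in Tbx19, 9 in Scel, 13 in Prokr1 and 3 in Dio1, with a median of 7 over all promoters. GC content ran from 47.0% in Tbx19 to 59.3% in Prokr1, with a median of 52.7%. Dio1 thus had fewer CG dinucleotides than each of the 3 genes that were higher, in 4 windows in all, while its GC content lay within their range.

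Against vehicle, Tbx19, Prokr1, Scel and Tg were higher with RGFP966 by 2.22 to 2.73-fold, and Dio1 and Cox6a2 were lower by 2.32 and 3.05-fold. All 6 passed the filter on low counts, which left 13484 genes. In each of the 6 the groups did not overlap, as in 36.3% of all tested genes. Higher calls by edgeR (adjusted p under 0.05) made up 11.4% of the tested genes and lower calls 11.9%. No call is given for the 6 genes, because they were chosen for their strong change. At least 2-fold, 141 genes were called higher and 14 lower. By log2 fold change the rises ranked 48 (Tbx19), 64 (Prokr1), 102 (Scel) and 105 (Tg), and the falls 3 (Cox6a2) and 8 (Dio1).

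**Figure D1:**
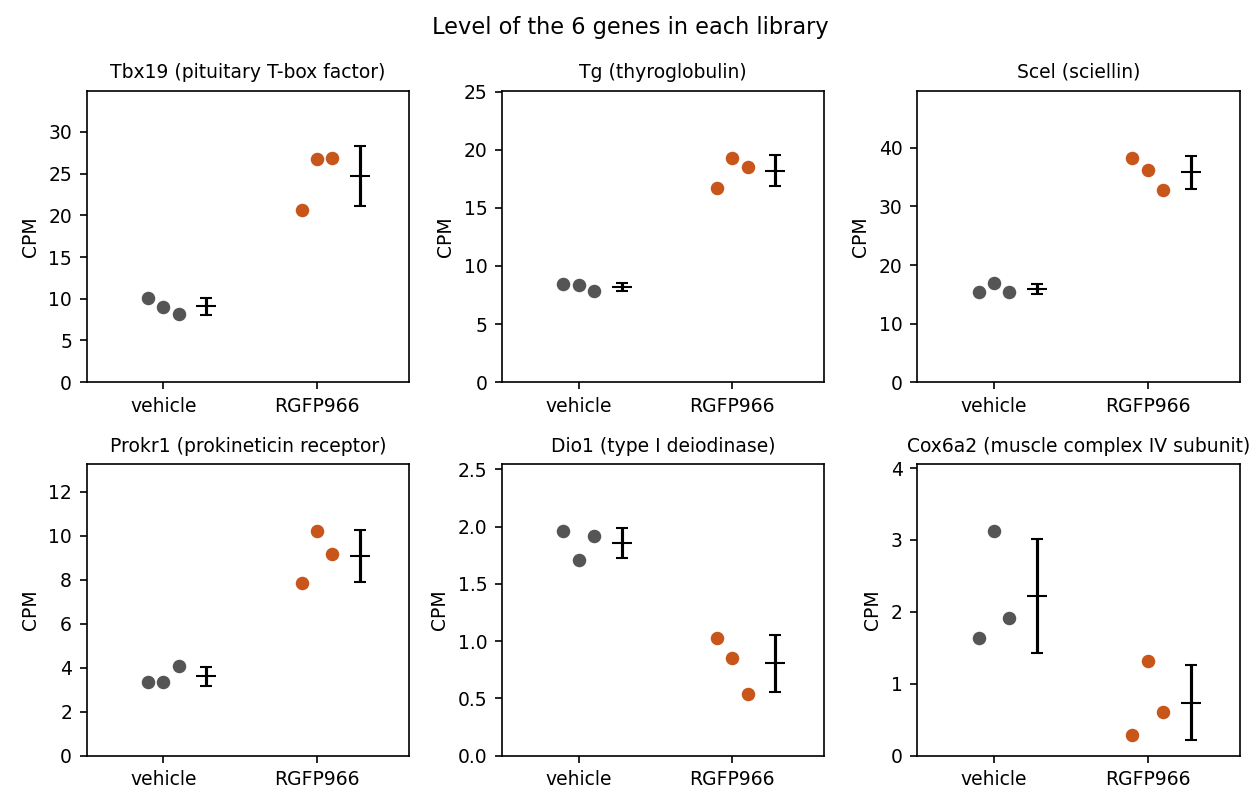
Level of each gene in CPM (counts scaled to library size, vertical axes starting at 0) in the 3 vehicle and 3 RGFP966 libraries. Points are libraries, from replicate 1 at the left to replicate 3 at the right, and bars show the mean and SD of 3. Groups do not overlap in any panel. The gap is narrowest for Cox6a2, where the lowest vehicle library is 1.24 times the highest RGFP966 library.

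Tbx19 (ENSMUSG00000026572, chromosome 1, 165137855 to 165160773, minus strand, mm10) encodes the corticotrope factor. Its counts were 155, 147 and 127 in vehicle libraries 1 to 3, and 280, 345 and 401 in RGFP966 libraries 1 to 3. In CPM these were 10.1, 9.0 and 8.12 against 20.6, 26.8 and 26.9. RGFP966 library 1 was the lowest of its group and still 2.04 times the highest vehicle library. The means were 9.08 ± 0.995 (SD, n = 3) and 24.7 ± 3.60 CPM, a log2 fold change of 1.45 ± 0.11 (SE). No exonic base of Tbx19 lies in exons of another gene, and none of its 50-base words occurs in another gene's transcripts. Gm16550, a pseudogene inside an intron of Tbx19 on the same strand, had 2, 3 and 0 counts in vehicle and 4, 7 and 11 in RGFP966 libraries.

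Prokr1 (ENSMUSG00000049409, chromosome 6, 87578591 to 87590743, minus strand) encodes a G protein-coupled receptor for prokineticins, secreted peptides that act on gut, endocrine glands and neurons. It gave 51, 55 and 64 counts in vehicle and 107, 132 and 137 in RGFP966 libraries. The levels were 3.33, 3.37 and 4.09 CPM against 7.86, 10.2 and 9.18 CPM. As in Tbx19 and Tg, library 1 was the lowest with RGFP966. Vehicle libraries averaged 3.60 ± 0.432 CPM and RGFP966 libraries 9.09 ± 1.19 CPM (SD, n = 3), and the log2 fold change was 1.34 ± 0.16 (SE).

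Tg (ENSMUSG00000053469, chromosome 15, 66670753 to 66850721, plus strand) spans 180.0 kb with 52 merged exons. Its counts were 129, 136 and 122 in vehicle and 227, 249 and 276 in RGFP966 libraries. In CPM it measured 8.41, 8.33 and 7.80 against 16.7, 19.3 and 18.5, and its vehicle libraries had the smallest spread of the 6 genes relative to the mean (CV 4.03%). The means were 8.18 ± 0.330 (SD, n = 3) and 18.2 ± 1.35 CPM, a log2 fold change of 1.15 ± 0.11 (SE). Sla, the gene of a Src-like adaptor of T cell receptor signalling, lies inside Tg on the opposite strand. No exons of the 2 genes overlap, but 3 of the 52 merged Tg exons, or 4.6% of Tg exonic bases, lie within the span of Sla. Sla stood at 511 ± 10.3 CPM without and 560.0 ± 6.10 CPM with RGFP966 (SD, n = 3) and rose by 0.13 ± 0.04 on the log2 scale (edgeR adjusted p = 0.00376). No source used here states whether counting used strand. Reads from unspliced Sla RNA over those Tg exons then cannot be told from Tg reads. Gm17140, an antisense gene over 1.26% of Tg exonic bases, had no count.

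Scel (ENSMUSG00000022123, chromosome 14, 103513342 to 103612797, plus strand) encodes sciellin, a protein of the cornified envelope that keratinocytes assemble under their membrane. The 3 vehicle libraries held 236, 276 and 241 counts and the 3 RGFP966 libraries 521, 468 and 490. Levels were 15.4, 16.9 and 15.4 CPM against 38.3, 36.3 and 32.8 CPM. Here RGFP966 library 1 was the highest of its group, unlike in the other 3 genes that were higher. The means were 15.9 ± 0.864 (SD, n = 3) and 35.8 ± 2.76 CPM, a log2 fold change of 1.17 ± 0.08 (SE). No other of the 6 genes reached its level in CPM in either group.

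Dio1 (ENSMUSG00000034785, chromosome 4, 107291465 to 107307169, minus strand) encodes the type I deiodinase of liver, kidney and thyroid. It was counted 30, 28 and 30 times in vehicle and 14, 11 and 8 times in RGFP966 libraries. The exact 95% Poisson intervals, which cover counting error only, were 20.2 to 42.8, 18.6 to 40.5 and 20.2 to 42.8 for vehicle, and 7.65 to 23.5, 5.49 to 19.7 and 3.45 to 15.8 for RGFP966. These intervals are of raw counts, not scaled to library size. That of RGFP966 library 1 reaches into each vehicle interval, and that of RGFP966 library 2 only into that of vehicle library 2. The values themselves do not overlap. In CPM the libraries measured 1.96, 1.71 and 1.92 against 1.03, 0.853 and 0.536. Vehicle libraries averaged 1.86 ± 0.130 CPM and RGFP966 libraries 0.806 ± 0.250 CPM (SD, n = 3), and the log2 fold change was -1.21 ± 0.35 (SE).

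Cox6a2 (ENSMUSG00000030785, chromosome 7, 128205435 to 128206387, minus strand) encodes the heart and skeletal muscle form of subunit VIa of cytochrome c oxidase, complex IV of the respiratory chain. Counts were 25, 51 and 30 in vehicle and 4, 17 and 9 in RGFP966 libraries, or 1.63, 3.12 and 1.92 against 0.294, 1.32 and 0.603 CPM. The exact 95% Poisson intervals of RGFP966 libraries 2 and 3, 9.90 to 27.2 and 4.12 to 17.1 counts, reach into that of vehicle library 1, 16.2 to 36.9 counts. That of RGFP966 library 2 also reaches into that of vehicle library 3, 20.2 to 42.8 counts. The means were 2.22 ± 0.792 (SD, n = 3) and 0.739 ± 0.525 CPM, the largest relative spread of the 6 genes, and the log2 fold change was -1.61 ± 0.37 (SE). It was -2.28 ± 0.45 without RGFP966 library 2 and -1.24 ± 0.39 without RGFP966 library 1. The whole gene, 1.0 kb long, lies inside Itgad on the opposite strand, and 10.3% of its exonic bases are also exon of Itgad. Itgad, an integrin gene of myeloid cells, had 1 count in vehicle library 3 and none elsewhere.

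**Figure D2:**
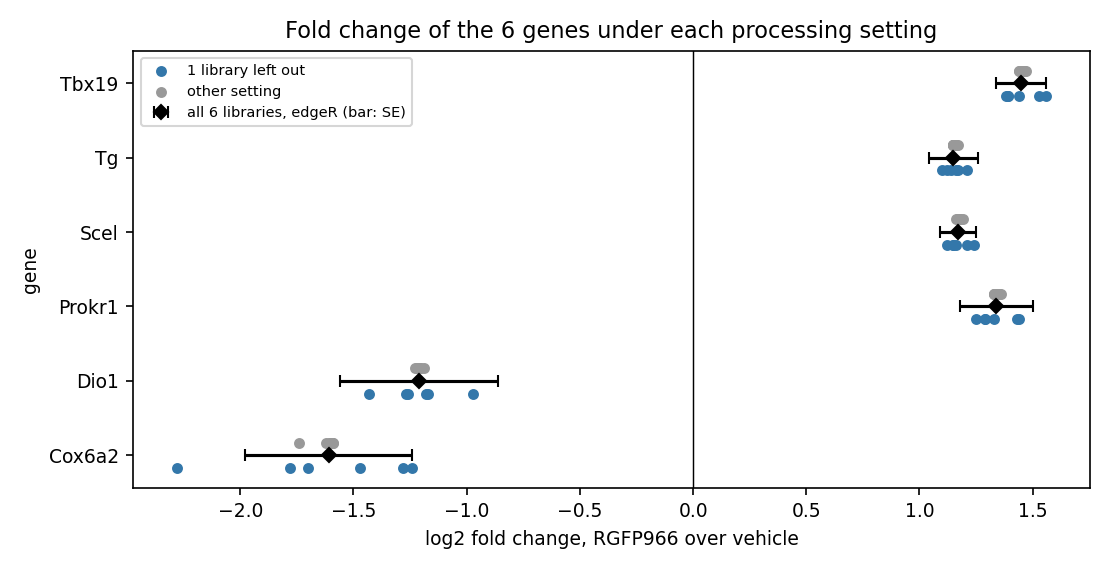
Log2 fold change (RGFP966 over vehicle) of each gene with all 6 libraries (black, with SE), with 1 library left out (blue) and under the other settings (grey). The sign of each gene is the same at every point. Cox6a2 moves most, from -2.28 to -1.24 with a library left out.

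Among themselves, the 4 rises differed by less than 1 combined SE from the next in order: Tbx19 exceeded Prokr1 by 0.11 ± 0.20 on the log2 scale, Prokr1 exceeded Scel by 0.17 ± 0.18, and Scel exceeded Tg by 0.02 ± 0.14. Rises further apart in the order, such as Tbx19 at 1.45 ± 0.11 and Tg at 1.15 ± 0.11 (SE), were not compared. The 2 falls differed by 0.40 ± 0.51. Levels per length were computed as TPM (counts scaled to exonic length and then to library size). In vehicle, Scel was highest at 20.3 ± 0.763 TPM (SD, n = 3). Cox6a2 at 10.4 ± 3.52 and Tbx19 at 9.09 ± 1.01 TPM did not differ beyond their spread, nor did Dio1 at 3.03 ± 0.258, Tg at 2.94 ± 0.107 and Prokr1 at 2.72 ± 0.353 TPM. Scel stood at percentile 48.0 of the tested genes in vehicle and Prokr1 at percentile 15.5, so none of the 6 lay in the upper part of the range. With RGFP966 the order was Scel (46.7 ± 3.07 TPM), Tbx19 (25.3 ± 3.83), Prokr1 (7.02 ± 0.908), Tg (6.68 ± 0.507), Cox6a2 (3.54 ± 2.49) and Dio1 (1.33 ± 0.400). Prokr1 and Tg did not differ beyond their spread there, and neither did Cox6a2 and Dio1.

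Partners of the 6 genes were read from 9 lists chosen by function, which hold 256 genes of the table, of which 84 had no count in any library. A count of 0 allows up to 0.183 to 0.232 CPM, depending on the library. In edgeR 105 of the 256 were tested, and 16 rose and 13 fell, 27.6% against 23.3% of all tested genes. Without RGFP966 library 3, 7 fell. The median log2 fold change over all tested genes was -0.002. It was 0.57 in thyroid hormone synthesis (2 tested) and 0.56 in epithelial markers (4 tested). In cornified envelope genes it was 0.31 (3 tested), and in the T-box family with the Tle genes 0.27 (7 tested). Medians of the other lists are given below beside their counts. A gene near the low-count filter can pass it through the group where it is higher. Among epithelial markers, Krt18 and Rab25 measured 0.473 and 0.532 CPM in vehicle and 0.865 and 0.928 CPM with RGFP966. Duox1, of thyroid hormone synthesis, measured 0.769 and 1.16 CPM. None of them was called, and they are named after their values were seen. The medians of such short lists are descriptions, and the effect of the filter on them was not tested.

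Of the thyroid genes, those that act with Tg in hormone synthesis were mostly silent. The thyroid transcription factor gene Nkx2-1 had no count, while Tshr, the thyrotropin receptor gene, measured 0.0835 CPM in vehicle and Pax8 0.0426 CPM. Of 18 such genes 9 had no count and 2 were tested, and 0 of the 2 were called by edgeR, DESeq2 or limma-voom. Slc5a5, the gene of the iodide transporter NIS, measured 2.21 ± 0.703 (SD, n = 3) and 3.21 ± 0.417 CPM (log2 fold change 0.54 ± 0.25 SE, edgeR adjusted p = 0.108, but 0.0353 without vehicle library 1). It was the 1 gene of the list under an unadjusted p of 0.05.

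Dio2 went the other way from Dio1. Dio2, the gene of the type II deiodinase that converts thyroxine to the active hormone within cells, measured 138, 144 and 125 CPM in vehicle and 203, 199 and 203 CPM in RGFP966 libraries. It rose by 0.57 ± 0.04 on the log2 scale (SE, edgeR adjusted p = 5.11e-15). Per length, Dio2 stood at 74.6 ± 4.23 TPM (SD, n = 3) in vehicle and 113 ± 2.54 TPM with RGFP966, against 3.03 and 1.33 TPM for Dio1. Dio3, the gene of the inactivating type III enzyme, had no count. Of the exonic bases of Dio2, 1.7% are also exon of Gm26512.

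Of the 20 tested genes of thyroid hormone action, 5 rose and 1 fell, with a median of 0.01. DESeq2 called 4 higher and 1 lower, and limma-voom 5 higher and 1 lower. In edgeR with a library left out, 3 to 5 rose and 0 to 3 fell. Of all tested genes edgeR called 11.4% higher and 11.9% lower. Thra, the gene of thyroid hormone receptor alpha, rose from 12.0 to 15.9 CPM (0.41 ± 0.11 SE, adjusted p = 0.00477), but without RGFP966 library 1 the adjusted p was 0.0954. Thra shares 5.7% of its exonic bases with Nr1d1 on the other strand. Rxra, the gene of its retinoid X partner, rose by 0.47 (adjusted p = 0.00259). Thrb, the beta receptor gene, measured -0.14 ± 0.24 (adjusted p = 0.722). The corepressor gene Ncor1, picked from the list after its values were seen, measured 0.01 (adjusted p = 0.829). Sephs2, which makes the selenium donor for selenoproteins, rose by 0.31 (adjusted p = 7.16e-06), with 36.4% of its exonic bases also in Gm44729. Slc7a5, the gene of an amino acid carrier that also takes up thyroid hormone, fell by 0.13 (adjusted p = 0.00941). Its adjusted p was 0.204 without vehicle library 3 and 0.0546 without RGFP966 library 3.

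Of the pituitary partners of Tbx19, none was called with all 6 libraries and no block. Pomc, the corticotrope hormone gene that TBX19 activates in the pituitary, stood at 1.32 ± 0.408 (SD, n = 3) CPM without and 1.49 ± 0.177 CPM with RGFP966 (log2 fold change 0.19 ± 0.33 SE, adjusted p = 0.745). Crhr1, the receptor gene for the releasing hormone, and Neurod1, a factor that works with TBX19 and PITX1, had no count, and Pitx1 measured 0.0213 CPM in vehicle and 0 with RGFP966. Of 25 genes 13 had no count and 5 were tested (median 0.06). Of these 0 were called by edgeR, DESeq2 or limma-voom, and 1 lay under an unadjusted p of 0.05. With the replicate block 1 was called lower, and with a library left out 0 or 1 was.

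Among T-box genes other than Tbx19, 7 of 16 had no count and 3 were tested, with 0 called. Tbx21, the gene of the T helper factor T-bet, measured 1.57 ± 0.692 (SD, n = 3) and 1.89 ± 0.0681 CPM (0.27 ± 0.31 SE, edgeR adjusted p = 0.592). Eomes, a T-box gene of cytotoxic T cells, measured 0.0204 CPM in vehicle and 0 with RGFP966. Per length Tbx19 exceeded Tbx21, at 2.02 ± 0.912 TPM in vehicle, by more than their spread. The Tle genes in the same list encode Groucho corepressors, and 3 of the 4 rose, where 11.4% of all tested genes were called higher. Tle4, named after its values were seen, measured 107 CPM in vehicle and 101 CPM with RGFP966 (-0.08 ± 0.05 SE, adjusted p = 0.235). Tle3 rose from 142 to 176 CPM (0.31 ± 0.04 SE, adjusted p = 1.16e-07). Tle2 and Tle1, at 1.63 and 1.08 CPM in vehicle, rose by 0.96 (adjusted p = 0.00468) and 1.03 (adjusted p = 0.0129). Without RGFP966 library 3 the adjusted p was 0.0622 for Tle2 and 0.0610 for Tle1, and for Tle1 it was 0.103 without vehicle library 2 and 0.0732 in the DESeq2 Wald test.

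Epithelial partners of Scel were few. Ivl, the gene of the envelope protein involucrin, and Ppl, that of periplakin, had no count, and neither did Epcam, while Evpl, the envoplakin gene, measured 1.43 ± 0.319 (SD, n = 3) and 1.78 ± 0.342 CPM (0.31 ± 0.31 SE, adjusted p = 0.521). Of 30 cornified envelope genes 16 had no count and 3 were tested. Grhl3, a Grainyhead-like transcription factor of the skin barrier, rose from 1.39 to 2.95 CPM (1.07 ± 0.28 SE, adjusted p = 0.0036). Cstb, the gene of a protease inhibitor that many cells express, fell by 0.19 (adjusted p = 0.00646, but 0.0699 without RGFP966 library 3). Of 29 epithelial markers 9 had no count, and Cdh1, the E-cadherin gene, measured 0.215 CPM in vehicle and 0.170 CPM with RGFP966. The single marker of 29 at 1 CPM or more was Grhl2, at 86.1, 84.2 and 86.4 CPM in vehicle and 103, 99.2 and 96.9 CPM in RGFP966 libraries. It is a Grainyhead-like factor of epithelial junction genes, and it rose by 0.22 ± 0.05 (SE, adjusted p = 0.00035). Among the 4 tested epithelial markers 1 rose and 0 fell by edgeR, DESeq2 or limma-voom, with none lower under an unadjusted p of 0.05. By edgeR 11.4% of all tested genes were called higher.

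Of prokineticin signalling, neither ligand gene had a count, Prok1 or Prok2, and the second receptor gene Prokr2 measured 0.0431 CPM in vehicle. Of the 26 genes of this list, most of which encode G proteins and enzymes that such receptors use, 18 measured at least 1 CPM, while Gnai1, an inhibitory G protein gene, also had no count. Gnaq, the gene of the Gq alpha subunit, measured 21.7, 19.4 and 21.7 CPM in vehicle and 28.1, 30.3 and 32.1 CPM in RGFP966 libraries, and rose by 0.53 ± 0.08 (SE, adjusted p = 1.65e-06). Plcb3, a phospholipase C gene downstream of Gq, rose by 0.24 (adjusted p = 0.00306). Mapk3, the gene of the kinase ERK1, rose by 0.19 (adjusted p = 0.0119, but 0.0523 without RGFP966 library 2, and by DESeq2 0.0539). Gnai2, an inhibitory G protein gene, fell by 0.21 (adjusted p = 5.03e-05). Of 19 tested genes 3 rose and 1 fell (median 0.07), 21.1% called against 23.3% of all tested genes. With upper-quartile factors, with total count scaling or with the replicate block, 6 rose and 1 fell.

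Of the complex IV genes that were called with all 6 libraries, each fell, as Cox6a2 did, by smaller amounts. Of 33 tested subunit and assembly genes 9 fell, 27.3% against 11.9% of all tested genes, and 0 rose in edgeR, DESeq2 or limma-voom, with none higher under an unadjusted p of 0.05. A negative sign was measured in 28 of the 33. The list summed to 19700 to 21900 CPM in vehicle libraries, and the effect of such high counts on the share called was not tested. The median was -0.08, and the number that fell was 6 to 10 with a library left out, 8 with upper-quartile factors and 7 by DESeq2. With a library left out, 0 to 1 rose. Cox6a1, the gene of the form of subunit VIa found in most tissues, measured 315, 301 and 284 CPM in vehicle and 260.0, 260.0 and 252 CPM in RGFP966 libraries. It fell by 0.22 ± 0.04 (SE, adjusted p = 2.09e-05). Of the 50-base words of Cox6a1, 9.2% occur in other genes. Per length Cox6a1 stood at 1370.0 ± 70.6 TPM (SD, n = 3) in vehicle, where Cox6a2 stood at 10.4 ± 3.52 TPM. Cox5b fell by 0.37 (adjusted p = 8.23e-09), Cox4i1 by 0.24 (adjusted p = 1.29e-05) and Cox7c by 0.24 (adjusted p = 0.00121), with 11.9%, 6.6% and 22.1% of their 50-base words in other genes. Cox7a1, the muscle form of subunit VIIa, measured -0.18 ± 0.36 (adjusted p = 0.772), and Cox8b, the muscle form of subunit VIII, 0.104 CPM in vehicle.

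Of 40 striated muscle genes 19 had no count, among them Ckm, the muscle creatine kinase gene, and the myogenic factor gene Myod1. Of the 12 tested, 3 rose and 1 fell (median 0.37), 33.3% called against 23.3% of all tested genes. Eno3, the muscle enolase gene, rose from 41.0 to 57.7 CPM (0.49 ± 0.06 SE, adjusted p = 1.04e-08). Ttn, the gene of the giant sarcomere protein titin, rose by 0.26 (adjusted p = 0.000199), and Srl, a gene of the sarcoplasmic reticulum, by 0.65 (adjusted p = 0.00928, but 0.0550 without RGFP966 library 3, and by DESeq2 0.0545). Tnnt1, a troponin gene at 81.0 CPM in vehicle, measured -0.15 ± 0.05 (adjusted p = 0.0225). With 1 library left out its adjusted p was 0.0502 (vehicle 1), 0.0921 (vehicle 2), 0.0603 (RGFP966 1) and 0.170 (RGFP966 3). It was 0.0585 with upper-quartile factors and 0.0918 in the DESeq2 Wald test. The summed level of the muscle list was 203 to 213 CPM in vehicle and 231 to 240.0 CPM in RGFP966 libraries.

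**Figure D3:**
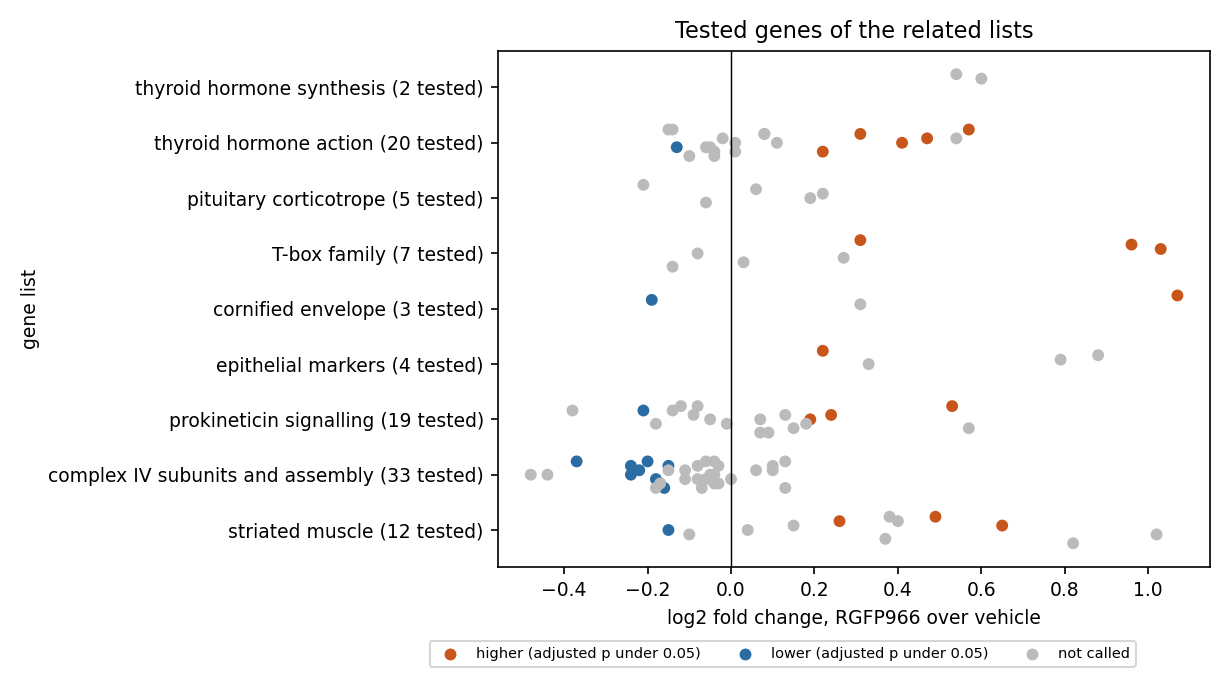
Log2 fold change (RGFP966 over vehicle) of every tested gene in the 9 lists, 1 row per list, coloured by its edgeR call. Complex IV genes called at an adjusted p under 0.05 all lie left of 0, and no thyroid synthesis or pituitary gene is coloured.

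**Figure D4:**
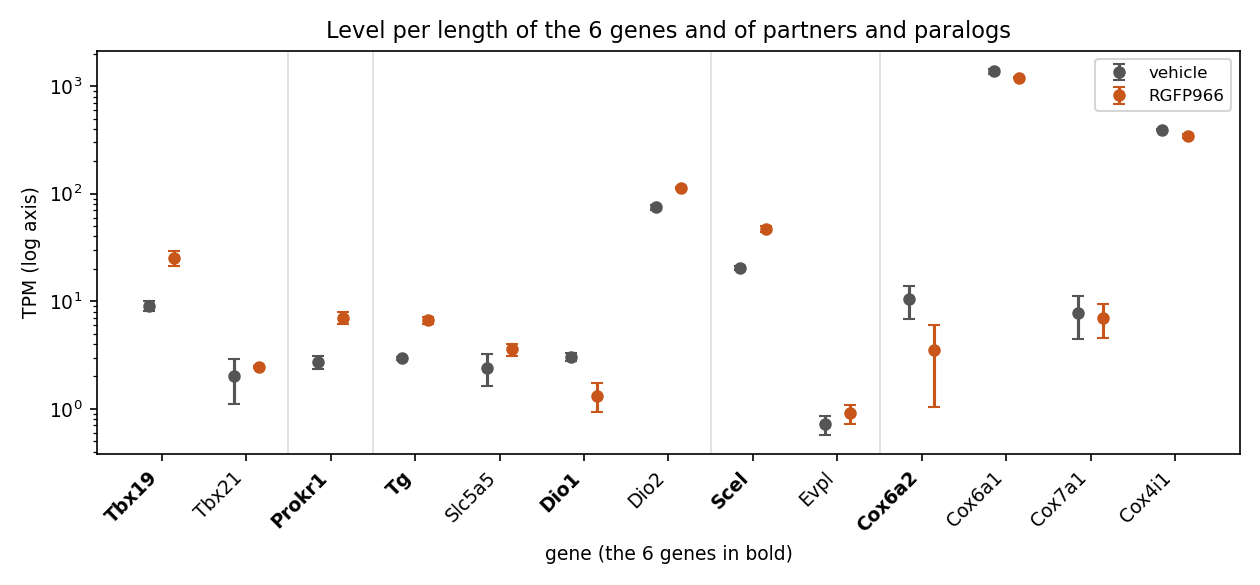
Level per length (TPM, log axis) of the 6 genes in bold and of partners and paralogs, as the mean of 3 libraries with SD, vehicle in grey and RGFP966 in orange. Dio2 lies above Dio1 and Cox6a1 above Cox6a2 in both groups, while Tbx19 lies above Tbx21.

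The genes beside the 6 in the genome were chosen by position alone: the 3 nearest protein-coding genes on each side and every gene overlapping a span, 40 in all. By edgeR 4 of the 24 tested neighbours rose and 2 fell, where 23.3% of all tested genes were called, and the median was 0.04. Beside Tbx19, the neighbour Sft2d2 at 13.6 kb measured 0.05 (adjusted p = 0.453) and Tiprl at 51.5 kb 0.01 (adjusted p = 0.899), and Xcl1, a chemokine gene of T cells, had no count. Prokr1 had 2 tested neighbours, Arhgap25 at 0.04 (adjusted p = 0.791) and Aplf at -0.13 (adjusted p = 0.318). Neither these nor the 4 tested neighbours of Cox6a2 were called. The gene Itgam, 86.9 kb from Cox6a2, measured 0.95 ± 0.37 (SE, adjusted p = 0.0532) from 14, 11 and 11 counts in vehicle to 17, 25 and 19. The neighbours named here that were not called were chosen after their values were seen.

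Around Tg, 3 of 6 tested neighbours rose, where 11.4% of all tested genes were called higher. Besides Sla inside the gene, Tmem71 at 109.7 kb rose from 4.72 to 6.96 CPM (0.56 ± 0.16 SE, adjusted p = 0.00732) and Ccn4, the gene of a secreted matricellular protein at 40.6 kb, from 180.0 to 210.0 CPM (0.22 ± 0.04, adjusted p = 2.27e-05). Phf20l1, the nearest at 22.8 kb, measured -0.06 (adjusted p = 0.325). Near Scel, Slain1 at 37.4 kb measured 0.05 (adjusted p = 0.593). Around Dio1, Yipf1, 7.2 kb away, fell by 0.19 (adjusted p = 0.007). Glis1, a Krüppel-like zinc finger gene at 127.4 kb, had 17, 17 and 14 counts in vehicle and 37, 32 and 28 in RGFP966 libraries and rose by 1.20 ± 0.31 (SE, adjusted p = 0.00267), opposite to Dio1.

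**Figure D5:**
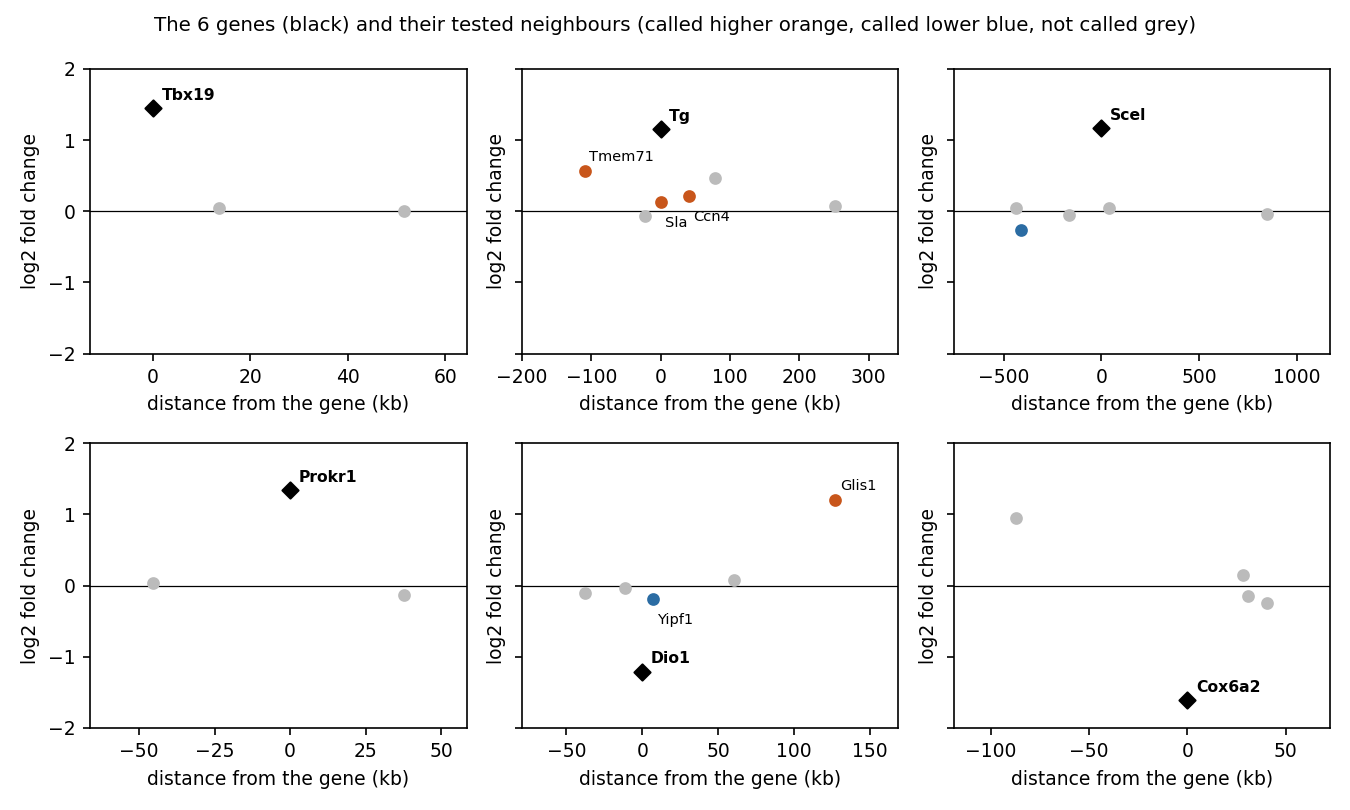
Log2 fold change (RGFP966 over vehicle) of each of the 6 genes (diamonds at 0) and of its tested neighbours, by distance from the gene in kb along the chromosome. Called neighbours of Tg and Dio1 are named, and grey points were not called. Tbx19, Prokr1 and Cox6a2 have no coloured neighbour.

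The genes most like each of the 6 over the 6 libraries were taken by Pearson correlation of log2 CPM among 10343 other named protein-coding genes of at least 1 CPM. The points share their libraries and the difference between groups, so these values are a description. Tg was most like Gzma, the granzyme A gene (r = 0.9986), and Hnrnpdl (r = 0.9981). Tbx19 was most like Naip2 (r = 0.9971) and Sirt4 (r = 0.9970). Scel had Zfp62 (r = 0.9977) and Hoxc10 (r = 0.9975), and Prokr1 had Setd5 (r = 0.9982) and Hbs1l (r = 0.9962). Dio1 was most like Mtfp1 (r = 0.9981) and Eaf1 (r = 0.9955), and Cox6a2 was most like Nmd3 (r = 0.9963) and Blzf1 (r = 0.9936). Apart from Gzma, with a log2 fold change of 1.74, these genes differed between groups by less than the gene they resembled, from 0.69 in Hoxc10 to -0.34 in Mtfp1.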

How the data were processed

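RNA sequencing counts of 6 EL4 libraries were used, 3 given vehicle and 3 given RGFP966. The authors deposited whole-number read counts for 51912 Ensembl genes. The submitters' processing notes list HTSeq 0.6.0, HISAT2 2.1.0, Bowtie2 2.2.3, TopHat2 and CASAVA, with mm10 as build. What each tool did, which annotation was used and whether counting was stranded is not stated in any source used here. Symbols matched 99.46% of the IDs, and gene positions, counted from 1, are those of GENCODE M21 (GRCm38, the assembly of mm10).

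The whole table was fitted in edgeR 4.0.16 (R 4.3.3) by its quasi-likelihood F test with robust dispersion, after filterByExpr and scaling by TMM, with group as the only term. Benjamini-Hochberg adjusted p-values cover all genes tested, and calls are at an adjusted p under 0.05. SE was taken from the fold change and the square root of F. In simulated counts with 190 genes changed 2-fold among 13294, 92.1% were recovered, and 5.4% of the genes called were unchanged ones. The simulation gave all genes a common dispersion, and smaller changes were not simulated. Alternatives were the replicate number as a block, DESeq2 1.42.0 size factors and Wald test, limma-voom 3.58.1, 3 other scalings or filters and each library left out. Same-numbered libraries did not deviate together, so they were not paired. Library totals, 12935443 to 16451017 counts, limit genes with few counts.

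The members and gene lists were chosen with earlier results of these data known. Named were the 6 genes, the called list genes with the strongest calls (up to 4 in the commoner direction and 2 in the other), fixed partners and paralogs, called or overlapping neighbours and the 2 most correlated genes of each. Some genes that the rule names are not reported here.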

Additional observations from a re-analysis of the deposited data

How the results depend on the processing

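Each of the 6 genes kept its sign under each of the alternatives that gave it a value, and none moved by more than the spread between replicates. With 1 library left out the log2 fold change ranged from 1.38 to 1.56 for Tbx19, 1.25 to 1.44 for Prokr1, 1.12 to 1.24 for Scel, 1.10 to 1.21 for Tg, -1.43 to -0.97 for Dio1 and -2.28 to -1.24 for Cox6a2. Dio1 and Cox6a2 gave no value at a minimum mean of 5 CPM. Genes called higher and lower numbered 1543 and 1602, against 1011 and 1076 in the DESeq2 Wald test and 1838 and 1270 with upper-quartile factors, where rises made up 59.1% of the calls in place of 49.1%. With a library left out, 1238 to 1385 genes were called higher and 1116 to 1484 lower, 13 to 20 related genes higher and 7 to 14 lower, the lowest without RGFP966 library 3, and 4 to 5 neighbours higher and 2 lower. The replicate block gave 1667 higher and 1764 lower. Deviations of same-numbered libraries correlated at -0.018, 0.013 and 0.008, and not every library correlated best with its own number. Counts of 4 to 51 per library limit Dio1 and Cox6a2.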
